A study of Mus musculus with 12 samples.

Results

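The cytochrome P450 genes of families 1 to 4 were examined in mouse pancreatic islets. The members are all genes whose symbol starts with Cyp1, Cyp2, Cyp3 or Cyp4, followed by a subfamily letter and a number, and that have a named probe on the Agilent Whole Mouse Genome array. This rule found 59 genes, measured by 80 probes, among 17305 named genes, and 18 of the 59 have more than 1 probe. Where a gene has several probes, the brightest one stands for it. The RefSeq table lists 113 symbols of this form, 79 of them protein-coding, and all 59 measured genes are protein-coding. The study compared islet RNA of 4 genotypes on 12 arrays in 1 colour, with 3 arrays for each genotype. WT carries no mutation. PPARγ2KO mice lack isoform 2 of the nuclear receptor PPARγ. The ob/ob mice (OB in the labels) lack leptin, and POKO mice (DKO in the labels) lack both leptin and PPARγ2. Mice of every group were female on the mixed C57BL/6 x Sv129 background and were fed chow. The labels give 4 weeks of age, and the text of the study gives a slightly older age. Each array holds RNA pooled over several mice, from islets picked by hand and cultured overnight, and both mutations are present in every tissue of the animal. A level on an array is therefore that of the whole preparation, in which fewer cells of a type and less RNA per cell cannot be told apart.

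P450 enzymes are haem proteins of the endoplasmic reticulum that use electrons from P450 oxidoreductase (Por) to insert oxygen into lipophilic molecules. Families 1 to 3 are best known for the oxidation of drugs, pollutants and steroids in liver and gut, and family 4 hydroxylates the end of fatty acid and eicosanoid chains. Several Cyp2c and Cyp2j enzymes also turn arachidonic acid into epoxides. Their genes are switched by ligand-activated receptors, among them the aryl hydrocarbon receptor (Ahr) for family 1, CAR (Nr1i3) and PXR (Nr1i2) for families 2 and 3, and PPARα for the Cyp4a genes.

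The promoters of 5 members that the results return to are printed here as 250 bases before and 50 bases after the start site, from RefSeq on build GRCm38.p6. Cyp3a13 and Cyp2a4 are shown because they passed the test in ob/ob islets, and Cyp1a1 because it is the classical Ahr target of the family. Cyp2b9 and Cyp2b13 are shown because the signals of the detected Cyp2b genes, Cyp2b10 included, moved together from array to array. Capitals mark 4 motifs searched on both strands, which are the TATA box TATAAA, the Ahr core GCGTG, the nuclear receptor motif AGGTCA and the HNF4A site CAAAGTCCA. Cyp3a13 lies at chr5:137921570-137921869 on the minus strand. On the plus strand are Cyp2a4 at chr7:26306942-26307241, Cyp1a1 at chr9:57697363-57697662, Cyp2b9 at chr7:26173159-26173458 and Cyp2b13 at chr7:26061245-26061544.
Cyp3a13: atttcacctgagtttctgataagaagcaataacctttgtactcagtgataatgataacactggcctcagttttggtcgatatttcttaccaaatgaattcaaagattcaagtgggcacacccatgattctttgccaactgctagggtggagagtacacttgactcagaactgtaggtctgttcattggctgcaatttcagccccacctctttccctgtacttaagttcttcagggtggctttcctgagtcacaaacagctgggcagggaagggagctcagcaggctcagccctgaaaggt
Cyp2a4: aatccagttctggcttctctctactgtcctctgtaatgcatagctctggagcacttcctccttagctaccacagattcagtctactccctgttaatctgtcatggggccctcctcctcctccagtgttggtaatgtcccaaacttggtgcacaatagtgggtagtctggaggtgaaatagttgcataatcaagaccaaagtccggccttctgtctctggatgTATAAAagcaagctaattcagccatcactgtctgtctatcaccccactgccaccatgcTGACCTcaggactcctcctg
Cyp1a1: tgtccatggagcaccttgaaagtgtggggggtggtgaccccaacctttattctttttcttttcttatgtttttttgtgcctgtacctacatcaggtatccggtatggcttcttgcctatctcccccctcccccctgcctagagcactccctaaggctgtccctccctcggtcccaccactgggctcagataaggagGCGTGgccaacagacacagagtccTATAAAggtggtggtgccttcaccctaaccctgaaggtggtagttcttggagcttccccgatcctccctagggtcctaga
Cyp2b9: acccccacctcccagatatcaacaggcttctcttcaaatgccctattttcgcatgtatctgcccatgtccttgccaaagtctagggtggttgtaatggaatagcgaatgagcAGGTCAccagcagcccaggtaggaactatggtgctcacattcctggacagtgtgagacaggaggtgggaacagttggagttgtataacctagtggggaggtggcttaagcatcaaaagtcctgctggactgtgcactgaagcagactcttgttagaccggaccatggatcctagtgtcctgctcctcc
Cyp2b13: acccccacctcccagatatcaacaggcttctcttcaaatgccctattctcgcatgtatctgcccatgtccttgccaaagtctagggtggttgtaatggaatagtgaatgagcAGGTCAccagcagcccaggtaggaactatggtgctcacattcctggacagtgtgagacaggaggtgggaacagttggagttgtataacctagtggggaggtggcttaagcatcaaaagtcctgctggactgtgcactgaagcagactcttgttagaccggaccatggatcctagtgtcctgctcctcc
The Cyp3a13 window holds none of the 4 motifs. In Cyp2a4 a TATA box starts 28 bases before the start site and an AGGTCA motif lies 31 bases after it. In Cyp1a1 the TATA box is at -30 and the Ahr core at -54. Cyp2b9 and Cyp2b13 are identical at 298 of 300 bases and both hold an AGGTCA motif at -138. The window of Cyp2b10, not printed here, holds an Ahr core and no AGGTCA motif, although its signal moved with theirs.

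A promoter was found for 47 of the 59 members. TATAAA was present in 22 of these 47 windows (46.8%), against 15.7% of the promoters of all 27025 genes in the table. Among the members that gave no signal in islets it was present in 10 of 14, and among those seen on all 12 arrays in 5 of 19. CpG dinucleotides numbered 0 to 4 in the 14 silent members (median 2) and 1 to 17 in the 19 members seen on every array (median 4). Over all genes they numbered 0 to 65, with a median of 7. The windows richest in CpG belong to Cyp2r1 (22), Cyp2s1 (17), Cyp4v3 (17) and Cyp1b1 (16). The HNF4A site was found in 5 windows, those of Cyp2c40, Cyp2c70, Cyp3a11, Cyp3a16 and Cyp3a41a, and in 0.555% of all promoters. The Ahr core was in 10 of 47 and in 35.2% of all promoters, and AGGTCA was in 15 of 47 and in 18.1%. These are matches of letters within the windows, and binding was not measured.

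Over the 12 arrays the scanner software called 54.3 to 64.9% of the spots well above background, which was 54.3 to 57.5% in WT, 57.1 to 60.9% in PPARγ2KO, 60.4 to 64.9% in ob/ob and 61.4 to 61.5% in POKO. The lowest log2 signal called well above background was 3.55 to 4.04 in WT, 3.13 to 3.62 in PPARγ2KO, 2.58 to 3.19 in ob/ob and 3.02 to 3.09 in POKO, so a dim gene was harder to call in WT. No spot was saturated. Each of the 3 slides holds 1 array of every genotype in the same order, so genotype and position on the slide cannot be told apart. Pparg, the targeted gene, had log2 signals of 8.87, 8.98 and 8.85 in WT and 8.54, 9.77 and 9.61 in ob/ob, and of 7.44, 7.27 and 6.60 in PPARγ2KO and 6.41, 7.11 and 7.14 in POKO. It was thus lower on all 6 arrays of the genotypes without PPARγ2, although the probe may also read the isoform that is left. Leptin (Lep) was silent on all 12 arrays.

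Of the 59 members, 31 were detected, meaning well above background on all 3 arrays of at least 1 genotype. Another 10 were seen on some arrays only and 18 were silent on all 12. The detected share was 52.5%, against 75.8% of all named genes, and the silent share 30.5%, against 15.6%. On all 12 arrays 21 members were seen. The number seen on all 3 arrays of a genotype was 23 in WT, 27 in PPARγ2KO, 28 in ob/ob and 30 in POKO.

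Liver enzymes are among the silent members. The 18 are Cyp1a2, Cyp2a12, Cyp2a22, Cyp2b23, Cyp2c38, Cyp2c39, Cyp2c55, Cyp2d34, Cyp2e1 (the ethanol-oxidising P450), Cyp2g1 (an olfactory P450), Cyp2j5, Cyp2j11, Cyp3a16, Cyp3a25, Cyp3a44, Cyp4a12b, Cyp4a31 and Cyp4f15. By subfamily, 5 of 6 Cyp2d genes, 4 of 6 Cyp4f genes, 3 of 5 Cyp2b genes, 3 of 5 Cyp2j genes, 3 of 6 Cyp3a genes, 3 of 6 Cyp4a genes, 3 of 10 Cyp2c genes and 1 of 4 Cyp2a genes were detected. Cyp1b1, Cyp2s1, Cyp2u1, Cyp4b1 and Cyp4v3, each alone in its subfamily here, were detected, and Cyp2e1, Cyp2f2, Cyp2g1 and Cyp2r1, also alone, were not. Seen on some arrays only were Cyp2a5, Cyp2b19, Cyp2c23, Cyp2c29, Cyp2c40, Cyp2c54, Cyp2f2, Cyp2r1 (a vitamin D hydroxylase), Cyp4a29 and Cyp4f14. Cyp2f2, which oxidises naphthalene in the airway, was chosen for mention after its values were seen. Its log2 signal was 7.61 on WT array 3 and 1.35 to 2.16 on the other 11 arrays. On the same array Cyp11a1, the P450 that starts steroid synthesis and belongs to another family, was at 9.16, against 1.54 to 2.51 on the other 11.

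**Figure D1:**
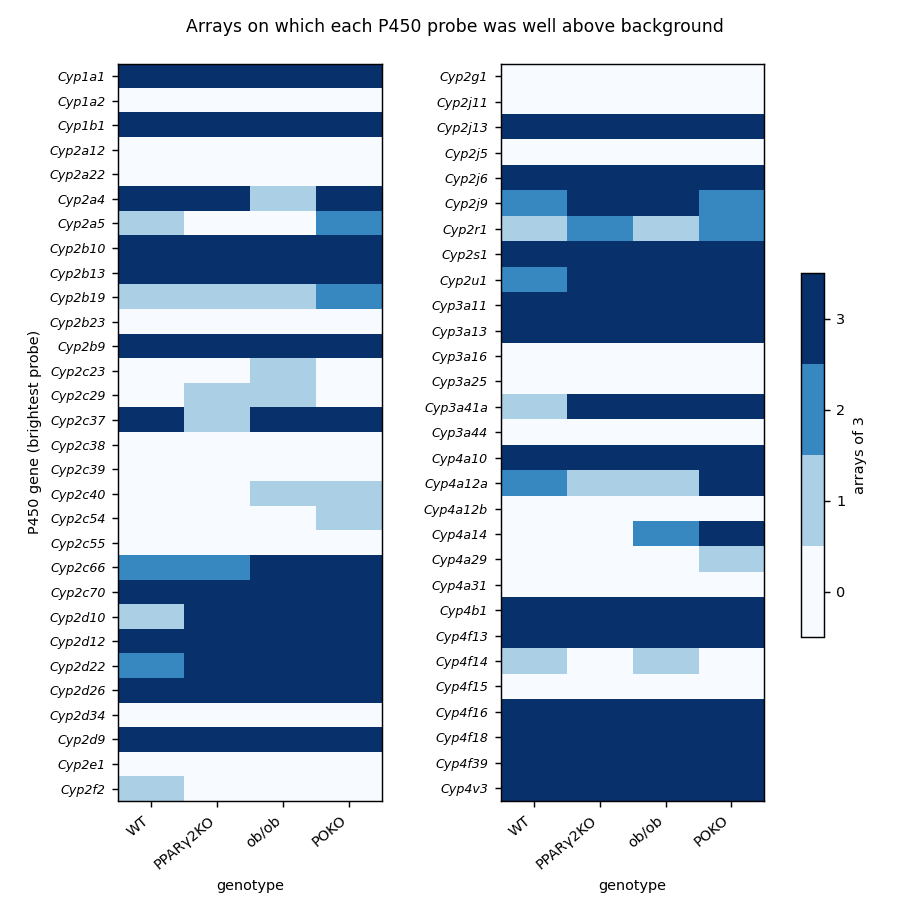
Number of arrays, of 3 for each genotype (columns), on which the brightest probe of each of the 59 P450 genes (rows) was well above background, from 0 (white) to 3 (dark blue). In 21 genes all 4 columns are dark, and 18 genes are white throughout.

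Since liver is the main site of many of these enzymes, hepatocyte genes were read on the same arrays. Of 9 measured genes 6 were detected and apolipoprotein A1 (Apoa1) was silent. The log2 of their summed signal was 10.50 to 11.95 in WT, 11.22 to 11.54 in PPARγ2KO, 11.11 to 11.40 in ob/ob and 10.86 to 11.21 in POKO. Transthyretin (Ttr), among these genes, is also on the list of alpha cell genes, so the sum is not particular to hepatocytes. Albumin (Alb) was above background on all 12 arrays, with group means between 5.62 and 6.65. The part of such cells in the P450 signals was not tested.

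The comparison of ob/ob with WT islets asks what leptin deficiency and early obesity change. Cyp3a13 fell most, Cyp2a4 fell and Cyp2u1 rose, and no other member met the criteria of the study, a log2 fold change of 1 or more in size together with an adjusted p of 0.05 or less (limma, Benjamini-Hochberg over 41174 probes). These 3 make 5.08% of the 59 members, beside 5.47% of all probes. Without the criterion on fold, 6 members passed (10.2%, beside 11.1%), with Cyp2d12 and the silent Cyp2b23 and Cyp2c38 added, and 23 had an unadjusted p under 0.05 (39.0%, beside 31.1%). The ob/ob and WT arrays did not overlap for 29 members (49.2%, beside 41.2%), 7 of them higher in ob/ob (11.9%, beside 11.3%) and 22 lower (37.3%, beside 29.9%). Of the 31 detected members 13 were higher and 18 lower, with a median log2 fold change of -0.05, beside -0.07 over all detected probes.

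Cyp3a13, a member of the subfamily that oxidises steroids and many drugs, had log2 signals of 11.82, 10.58 and 9.26 on the WT arrays. In PPARγ2KO they were 9.74, 9.19 and 9.39, in ob/ob 7.98, 7.26 and 6.82, and in POKO 8.41, 7.86 and 8.88. All ob/ob arrays lay below all WT and PPARγ2KO arrays, and the WT arrays were themselves far apart. From WT to ob/ob the log2 signal fell by 3.20 (SE 0.58), which is 9.17-fold, with an adjusted p of 0.0217 by limma. Within the slides the ob/ob minus WT difference was -3.84, -3.32 and -2.44, and with the slide as a block the adjusted p was 0.0264. Left-out arrays moved the call, since the adjusted p was 0.0824 without WT replicate 2, 0.0674 without ob/ob replicate 2 and 0.0689 without ob/ob replicate 3, and the log2 fold change ranged from -3.84 to -2.56 over the 12 arrays left out in turn. Fitted on the WT and ob/ob arrays alone, the adjusted p was 0.0982.

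Cyp2a4, a steroid hydroxylase more abundant in female than in male mouse liver, was at 4.45, 4.34 and 4.45 in WT and 4.48, 3.99 and 3.79 in PPARγ2KO. It was at 3.20, 3.23 and 3.33 in ob/ob and 4.07, 3.85 and 4.21 in POKO. The ob/ob arrays were the lowest 3 of the 12, and only 1 of them was above background. The log2 fold change from WT to ob/ob was -1.16 (SE 0.16, adjusted p = 0.0141 by limma), 2.24-fold lower, with -1.25, -1.11 and -1.13 within slides and an adjusted p of 0.0224 with the slide as a block. The other 2 probes of Cyp2a4 were silent, and scaling to the 75th percentile gave -0.82, short of the criterion on fold. Normexp background correction, which compresses dim signals, gave -0.10, and the mean over all 3 probes gave -0.32 (adjusted p = 0.289). Without WT replicate 2 the adjusted p was 0.0504. Probe sequences were not used, so a share of Cyp2a5 or another Cyp2a transcript in this signal cannot be told apart.

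Cyp2u1, which hydroxylates long-chain fatty acids, was at 4.55, 3.99 and 4.90 in WT, where 2 of 3 arrays were above background. It stood at 5.19, 5.14 and 5.20 in PPARγ2KO, 5.19, 5.82 and 5.78 in ob/ob and 5.05, 5.11 and 4.97 in POKO. Every mutant array was above every WT array. The ob/ob minus WT difference was 1.11 (SE 0.23, adjusted p = 0.027 by limma), 2.16-fold higher, with 0.64, 1.82 and 0.87 within slides and an adjusted p of 0.0337 with the slide as a block. Without WT replicate 1, WT replicate 2, ob/ob replicate 2 or ob/ob replicate 3 the adjusted p was 0.0752, 0.0843, 0.0806 and 0.0798, and normexp gave a log2 fold change of 0.17. Fitted on the WT and ob/ob arrays alone, Cyp2u1 had an adjusted p of 0.119.

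**Figure D2:**
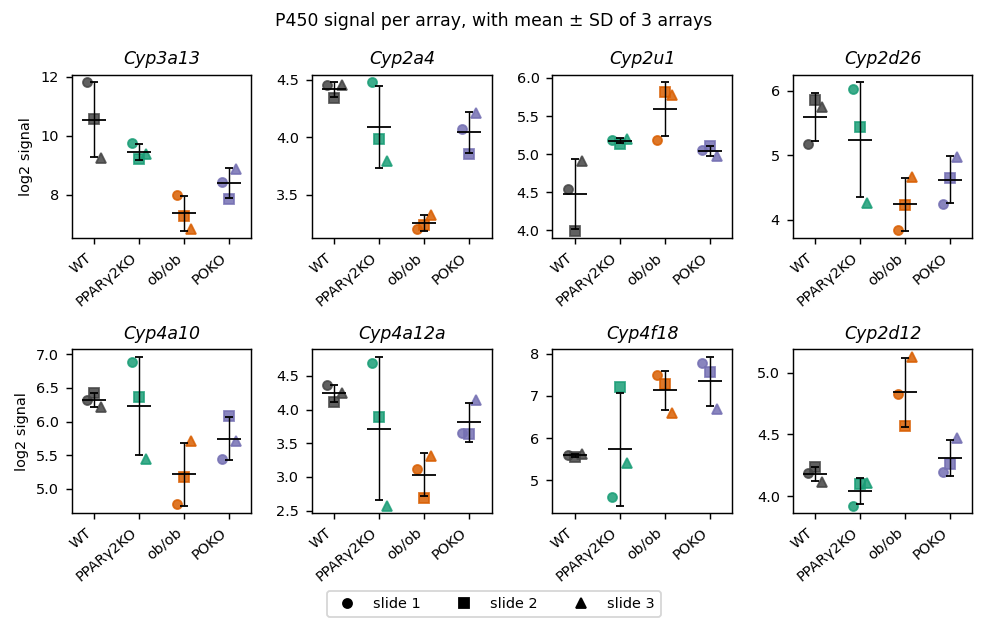
Log2 signal (vertical axes) of 8 P450 genes on the 12 arrays, by genotype (horizontal axes), with symbols for the 3 slides, dashes for means and bars for SD of 3 arrays. Cyp3a13 and Cyp2a4 are lowest in ob/ob, Cyp2u1 is lowest in WT, and Cyp4f18 is high in ob/ob, in POKO and on 1 PPARγ2KO array.

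Of the other family 3 genes, Cyp3a11, the main drug-oxidising P450 of mouse liver, had means of 4.73 in WT and 4.73 in ob/ob, and Cyp3a41a had 4.20 and 4.14.

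In family 1, Cyp1a1, the main oxidase of polycyclic hydrocarbons, was above background on all 12 arrays. Its log2 signal was 9.51, 8.40 and 8.91 in WT, 8.49, 9.29 and 8.65 in PPARγ2KO, 9.25, 8.13 and 8.22 in ob/ob and 7.92, 8.23 and 8.28 in POKO. The POKO arrays lay below the WT arrays, and those of ob/ob overlapped with WT. The log2 fold change was -0.41 in ob/ob (adjusted p = 0.471) and -0.80 in POKO (adjusted p = 0.321, both by limma). Cyp1b1, an oestrogen hydroxylase, ranged from 6.65 to 8.97, with all genotypes overlapping, and Cyp1a2, the neighbour of Cyp1a1 in the genome, was silent.

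Of the other family 1 to 4 enzymes with bright probes, Cyp2s1, an epithelial P450 that also answers to Ahr, was at 9.75, 10.33 and 8.58 in WT, 9.10, 9.31 and 9.20 in PPARγ2KO, 8.65, 9.31 and 9.56 in ob/ob and 9.33, 9.85 and 9.21 in POKO. The range of its WT arrays encloses all the others. Cyp4f13 was at 9.06, 9.20 and 9.03 in WT, 9.502, 9.088 and 8.9998 in PPARγ2KO, 8.96, 9.03 and 9.39 in ob/ob and 8.99, 9.09 and 9.14 in POKO. Its groups all overlapped, with a log2 fold change of 0.03 in ob/ob (adjusted p = 0.901 by limma) whose sign turned under 75th percentile scaling. Cyp4v3, a fatty acid hydroxylase of eye and other tissues, was at 8.58, 8.77 and 9.31 in WT, 8.97, 8.64 and 8.90 in PPARγ2KO, 9.01, 9.52 and 9.12 in ob/ob and 8.905, 9.004 and 8.719 in POKO, with all groups overlapping WT.

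Among the Cyp2j and Cyp2c genes, Cyp2j6 was at 8.61, 8.65 and 8.48 in WT, 8.75, 8.25 and 8.60 in PPARγ2KO, 8.33, 8.14 and 7.77 in ob/ob and 8.31, 8.48 and 8.25 in POKO. The ob/ob arrays were below the WT arrays, by 0.49 on average (adjusted p = 0.0796 by limma), short of the criteria. Cyp2j13 had group means of 6.56 in WT and 5.89 in ob/ob (adjusted p = 0.0654 by limma), and Cyp2j9 had means of 4.39 and 3.96. Cyp2c70, which makes muricholic bile acids in liver, had means of 6.12 in WT and 5.69 in ob/ob. Cyp2c66, chosen for mention after its values were seen, was high on ob/ob array 2 (5.51) and POKO array 2 (5.31), both on slide 2, and between 3.18 and 4.39 on the other arrays.

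The 3 detected Cyp2b genes, relatives of the phenobarbital-inducible P450s and targets of CAR, were lowest on ob/ob arrays 1 and 2, and their POKO arrays overlapped with WT. Cyp2b10 had group means of 6.57 in WT, 6.10 in PPARγ2KO, 5.60 in ob/ob and 6.45 in POKO. Cyp2b9 had 7.23, 7.03, 6.49 and 7.39, and Cyp2b13 had 7.08, 6.83, 6.39 and 7.09 in the same order. In ob/ob the log2 fold changes were -0.97, -0.74 and -0.68 for Cyp2b10, Cyp2b9 and Cyp2b13, and none passed (adjusted p = 0.0798, 0.0767 and 0.227 by limma). From ob/ob to POKO they were 0.84, 0.89 and 0.70 (adjusted p = 0.531, 0.531 and 0.566 by limma). On PPARγ2KO array 2, on ob/ob arrays 1 and 2 and on POKO array 1 all 3 genes were below their means over the 12 arrays. These are close paralogs and the probe sequences were not used here, so signals shared between the 3 transcripts cannot be told apart.

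In the Cyp2d subfamily, which oxidises many drugs, Cyp2d26 lay lower and Cyp2d12 higher in ob/ob, and neither met both criteria. Cyp2d26 was at 5.17, 5.86 and 5.75 in WT, 6.02, 5.44 and 4.26 in PPARγ2KO, 3.84, 4.22 and 4.66 in ob/ob and 4.24, 4.64 and 4.97 in POKO. The ob/ob and POKO arrays were all below the WT arrays, while PPARγ2KO spanned both. The log2 fold change was -1.35 (SE 0.43, adjusted p = 0.0682) in ob/ob and -0.98 (adjusted p = 0.297) in POKO, both by limma. Cyp2d12, chosen for mention after its values were seen, was at 4.19, 4.23 and 4.12 in WT and 4.83, 4.57 and 5.13 in ob/ob, against 3.92, 4.10 and 4.10 in PPARγ2KO and 4.20, 4.26 and 4.47 in POKO. The ob/ob arrays were the highest 3 of the 12, 0.66 above WT (SE 0.14), and passed the adjusted p (0.0277 by limma) but not the fold. Cyp2d9 showed 0.19 in ob/ob with its brightest probe and 0.97 (adjusted p = 0.0372) with its second probe, so the probes of this gene disagree. Cyp2d10 and Cyp2d22 had means of 3.74 and 4.60 in WT and 4.08 and 4.89 in ob/ob.

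**Figure D3:**
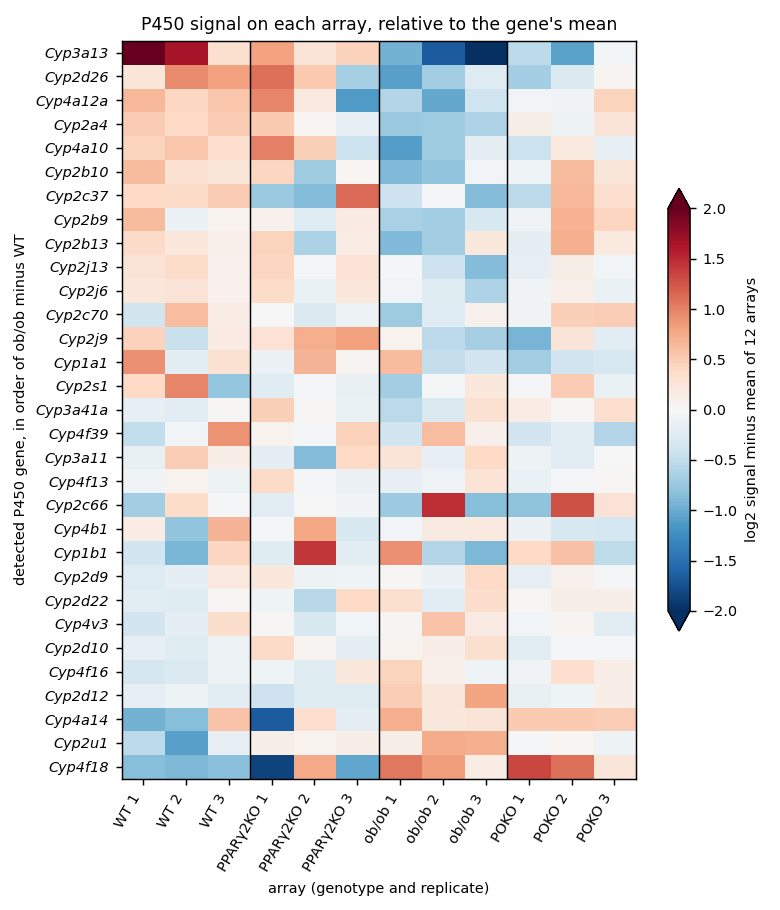
Log2 signal of the 31 detected P450 genes (rows, from the largest fall to the largest rise in ob/ob against WT) on the 12 arrays (columns), each minus the mean of the gene over the 12 arrays, in colour from -2 (blue) to 2 (red). Cyp3a13 shows the widest range, the Cyp2b genes share their lighter and darker arrays, and the middle rows change little by genotype.

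In family 4 no gene met the criteria, although the ob/ob and WT arrays did not overlap for the detected Cyp4a10, Cyp4a12a, Cyp4f16 and Cyp4f18, nor for Cyp4a29 and Cyp4a31, which were above background on no WT or ob/ob array. Cyp4a10, a fatty acid hydroxylase and a classical PPARα target, was at 6.33, 6.43 and 6.21 in WT, 6.89, 6.36 and 5.44 in PPARγ2KO, 4.77, 5.17 and 5.71 in ob/ob and 5.45, 6.08 and 5.71 in POKO. Cyp4a12a was at 4.36, 4.11 and 4.25 in WT, 4.68, 3.89 and 2.58 in PPARγ2KO, 3.12, 2.69 and 3.31 in ob/ob and 3.65, 3.64 and 4.14 in POKO, above background on 7 of 12 arrays, of which 2 were WT and 1 was ob/ob. For both genes every ob/ob array was below every WT array and PPARγ2KO array 3 was among the low ones. Their log2 fold changes in ob/ob were -1.10 (SE 0.36, adjusted p = 0.0732) and -1.21 (SE 0.44, adjusted p = 0.0995) by limma. With single arrays left out the adjusted p by limma ranged from 0.0366 to 0.188 and from 0.0283 to 0.245. The lowest value of both genes came without PPARγ2KO replicate 3. Under the other alternatives the log2 fold changes ranged from -1.15 to -0.26 and from -1.35 to -0.05. The other probes of Cyp4a10 were silent. Cyp4a14, another PPARα target, was above background on 0 of 6 arrays of WT and PPARγ2KO, on 2 of 3 of ob/ob and on all 3 of POKO (3.21 to 3.26). No fold is given for Cyp4a14, because WT array 3 read 3.30 without being called above background.

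Cyp4f18, which breaks down leukotrienes in white blood cells, was at 5.59, 5.56 and 5.62 in WT and 4.59, 7.21 and 5.41 in PPARγ2KO. It was at 7.50, 7.28 and 6.60 in ob/ob and 7.79, 7.56 and 6.69 in POKO. All 6 leptin-deficient arrays and PPARγ2KO array 2 were above the 3 WT arrays. The log2 fold change against WT was 1.54 (SE 0.58, adjusted p = 0.109) in ob/ob and 1.75 (SE 0.58, adjusted p = 0.185) in POKO, both by limma, with 1.91, 1.72 and 0.98 within slides for ob/ob and 2.20, 2.00 and 1.07 for POKO. Without PPARγ2KO replicate 2, the array that stands apart, the adjusted p in ob/ob was 0.033 by limma. This was the lowest value with single arrays left out, and the highest was 0.23. Under the other alternatives the log2 fold change of Cyp4f18 in ob/ob ranged from 0.52 to 1.72. On the 12 arrays 4 of 6 B cell genes passed the criteria upwards in ob/ob (beside 3.56% of all probes). The log2 of their summed signal was 6.37 to 6.58 in WT, 10.23 to 11.84 in ob/ob and 10.1 to 11.7 in POKO, and 5.95, 11.41 and 6.81 on PPARγ2KO arrays 1, 2 and 3. Pax5 was silent on all 12 arrays, and Cd79b was seen on all of them. The part of B cells in the Cyp4f18 signal was not tested. Of the other family 4 genes, Cyp4f16 had means of 8.01 in WT and 8.40 in ob/ob, Cyp4b1, a lung and kidney enzyme, 5.61 and 5.70, and Cyp4f39, which makes skin ceramides, 6.93 in both.

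**Figure D4:**
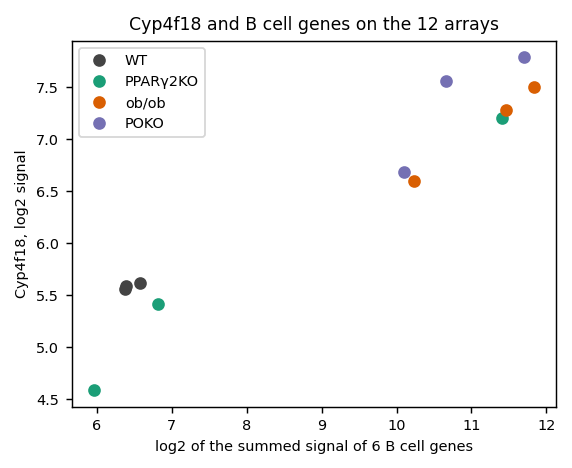
Log2 signal of Cyp4f18 (vertical axis) against the log2 of the summed signal of 6 B cell genes (horizontal axis), 1 point for each of the 12 arrays, coloured by genotype. The 3 WT arrays and 2 PPARγ2KO arrays lie at the low end of both axes, and the ob/ob arrays, the POKO arrays and PPARγ2KO array 2 at the high end.

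The comparison of POKO with WT asks what is left of these changes when PPARγ2 is missing as well, and it uses the same WT arrays as the comparison of ob/ob with WT. No member passed (limma, beside 0.172% of all probes), 10 had an unadjusted p under 0.05 (16.9%, beside 16.4%), and 19 did not overlap with WT (32.2%, beside 34.8%). Cyp3a13 had the lowest p of the detected members, with a log2 fold change of -2.16 (SE 0.58, adjusted p = 0.124), against -3.20 in ob/ob. Within the slides it was -3.40, -2.72 and -0.38, and without WT replicate 3 it was -2.81 with an adjusted p of 0.0403. Cyp2u1 was 0.56 above WT (adjusted p = 0.265), and Cyp2a4 was 0.37 below it (log2 fold change -0.37, adjusted p = 0.301).

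**Figure D5:**
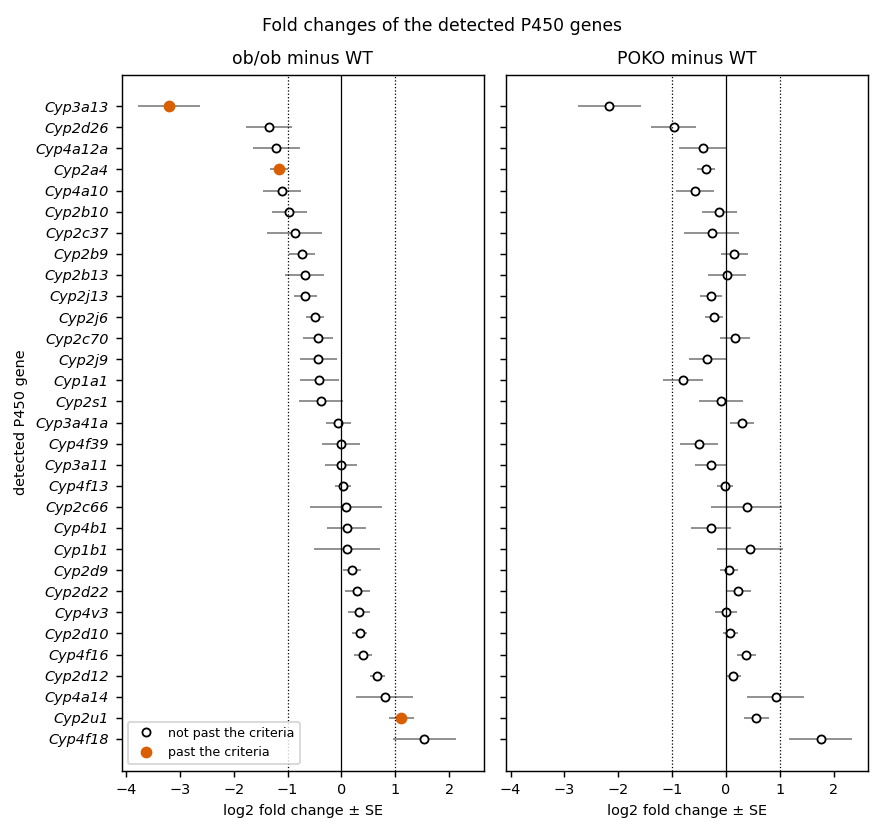
Log2 fold change with SE (horizontal axes) of the 31 detected P450 genes (rows) in ob/ob against WT (left) and POKO against WT (right), from the fit over 12 arrays, with 3 arrays in each group. Filled points are past the criteria, Cyp3a13, Cyp2a4 and Cyp2u1 on the left and none on the right, and dotted lines mark a log2 fold change of 1 in each direction.

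POKO against ob/ob asks for the effect of PPARγ2 in the absence of leptin, at the looser limit of the study (adjusted p at most 0.3). No member passed it by limma (beside 0.0219% of all probes), and 5 had an unadjusted p under 0.05 (8.47%, beside 9.28%). These were Cyp2a4 (log2 fold change 0.79), Cyp2b9 (0.89) and Cyp2b10 (0.84), higher in POKO, and Cyp2d12 (-0.53) and Cyp2u1 (-0.55), lower, with an adjusted p of 0.531 each. Cyp3a13 was 1.03 higher in POKO (adjusted p = 0.609), with differences of 0.43, 0.60 and 2.07 within slides. The ob/ob and POKO arrays did not overlap for 8 members (13.6%, beside 17.7%).

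PPARγ2KO against WT gives the effect of PPARγ2 in lean mice, with a limit of 0.2. No member passed by limma (beside 0.0971% of all probes), 2 had an unadjusted p under 0.05 (3.39%, beside 9.37%) and 4 did not overlap (6.78%, beside 12.6%). The 2 were Cyp2u1, which was 0.69 higher (adjusted p = 0.482), and Cyp2c23, which was below background on all arrays of both groups. For Cyp3a13 the log2 fold change was -1.11 (adjusted p = 0.592), with -2.08, -1.39 and 0.14 within slides, and it met the criteria without WT replicate 3. In POKO against PPARγ2KO no member passed at 0.2 by limma (beside 0.211% of all probes), 3 had an unadjusted p under 0.05 (5.08%, beside 11.1%), namely Cyp4f18, Cyp2j9 and the silent Cyp2a22, and 14 did not overlap (23.7%, beside 22.4%). In ob/ob against PPARγ2KO no member passed by limma (beside 0.00486% of all probes), 12 had an unadjusted p under 0.05 (20.3%, beside 19.3%) and 9 did not overlap (15.3%, beside 21.6%). Of the 12, Cyp2d12 (0.80, adjusted p = 0.0802), Cyp2a4 (-0.83, adjusted p = 0.0821) and Cyp3a13 (-2.09, adjusted p = 0.118) had the lowest p.

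Whether the loss of PPARγ2 acted differently with and without leptin was tested by the interaction, the POKO minus ob/ob difference minus the PPARγ2KO minus WT difference. No member passed by limma, nor did any probe of the array (0%), and 7 members had an unadjusted p under 0.05 (11.9%, beside 13.9%). The interaction was 1.12 for Cyp2a4 (adjusted p = 0.224), -1.25 for Cyp2u1 (adjusted p = 0.257), 1.09 for Cyp2b9 (adjusted p = 0.274), 1.32 for Cyp2b10 (adjusted p = 0.29) and 2.14 for Cyp3a13 (adjusted p = 0.31). With 3 arrays per group, a difference between the effects of PPARγ2 in the lean and the leptin-deficient state was not detectable for any member, except that Cyp2u1 met the criteria without WT replicate 3.

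The proteins that P450 enzymes work with were measured by 17 of 18 listed genes, all detected, and none passed the criteria in any comparison by limma. In ob/ob 5 had an unadjusted p under 0.05 (beside 31.1% of all probes), and 2 of them passed the adjusted p alone (beside 11.1%). These 2 were ferredoxin 1 (Fdx1, log2 fold change -0.80, adjusted p = 0.0125), which serves mitochondrial P450s, and cytochrome b5 (Cyb5a, -0.55, adjusted p = 0.0379), both by limma. Por was at -0.26 (adjusted p = 0.0862), and Alas1, the first enzyme of haem synthesis, at -0.18 (adjusted p = 0.438). The median over the 17 genes was -0.26.

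Of 19 measured receptors and factors that control P450 genes, 3 fell past the criteria in ob/ob and none rose (beside 5.47% of all probes called in either direction). They were the orphan receptor SHP (Nr0b2, log2 fold change -1.44, adjusted p = 0.0224), Hnf4a, a main regulator of liver and gut P450 genes (-1.36, adjusted p = 0.0183), and Cebpa (-1.11, adjusted p = 0.0206), all by limma. Hnf4a was at 7.70, 7.75 and 7.16 in WT, 7.87, 7.47 and 7.09 in PPARγ2KO, 6.43, 6.13 and 5.97 in ob/ob and 6.48, 6.54 and 6.71 in POKO, so that all 6 leptin-deficient arrays were below all 6 others. PXR (Nr1i2) was silent, while CAR (Nr1i3) was seen on all 12 arrays (0.94 in ob/ob, adjusted p = 0.399). Ahr itself was at -0.05 (adjusted p = 0.908) and Ppara at 0.01 (adjusted p = 0.989).

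Outside the P450 genes, none of 7 measured Ahr targets passed in any comparison by limma, and 4 had an unadjusted p under 0.05 in ob/ob (beside 31.1% of all probes). Of these, Ugt1a6b was at 0.90 (adjusted p = 0.0935), Tiparp at 0.39 (adjusted p = 0.141) and the glutathione transferase Gsta1 at -2.10 (adjusted p = 0.0809), while Aldh3a1 was silent. Nqo1 was not among them (-0.45, adjusted p = 0.4). For the lists that follow, the criteria were met by 5.47% of all probes in ob/ob against WT. Of 16 PPAR targets 1 rose past the criteria, the fatty acid carrier Fabp4 (1.31, adjusted p = 0.0449 by limma). Of 37 measured genes of conjugation and other oxidation, the microsomal glutathione transferase Mgst2 was at least 5.40-fold higher (adjusted p = 0.0436), as no WT array was above background. The glutathione transferases Gstt3 (-1.19, adjusted p = 0.0227) and Mgst1 (-1.37, adjusted p = 0.0287) fell, all by limma. Of 19 P450 genes of other families 2 rose and none fell past the criteria. Cyp26b1, which clears retinoic acid, was at 6.17, 5.80 and 6.72 in WT, 6.05, 7.11 and 6.81 in PPARγ2KO, 8.71, 8.99 and 10.07 in ob/ob and 8.80, 8.28 and 8.79 in POKO. All leptin-deficient arrays were above the 6 others, and the log2 fold change in ob/ob was 3.03 (adjusted p = 0.0125 by limma). Cyp7b1, an oxysterol hydroxylase, rose by 1.16 (log2 scale, adjusted p = 0.0252 by limma).

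Genes of other cell types in the preparations moved in ob/ob too. In ob/ob against WT 5.47% of all probes passed the criteria and 31.1% had an unadjusted p under 0.05. No gene of the marker lists passed by limma in POKO or PPARγ2KO against WT (beside 0.172% and 0.0971% of all probes). At an unadjusted p under 0.05 (beside 16.4% of all probes), 5 of 7 T cell and 4 of 6 B cell genes were higher in POKO than in WT. So were 4 of 6 endothelial, 3 of 5 macrophage and 2 of 3 erythroid genes, and none of these lists had a lower gene. The medians over their detected genes were 3.47, 2.91, 0.89, 1.43 and 2.72, against 3.86, 2.95, 1.11, 0.75 and 2.95 in ob/ob. Of 9 beta cell genes 1 was higher and 3 lower, and of 8 duct genes 1 and 2. All 13 acinar genes were detected on every array and none passed in ob/ob by limma (1 had an unadjusted p under 0.05), with a log2 summed signal of 21.33 to 21.65 over the 12 arrays. The log2 summed signal of the 9 measured beta cell genes was 19.27 to 19.85 on the same arrays. The part of acinar cells in the P450 signals was not tested. Of 8 duct genes, all detected, 2 fell past the criteria, Krt19 (-1.57, adjusted p = 0.0173) and Cftr (-1.33, adjusted p = 0.0436), and Sox9 passed the adjusted p alone (-0.73, adjusted p = 0.0346). Muc1 was at -0.87 (adjusted p = 0.107 by limma), and Krt7 and Spp1 were higher in ob/ob, by 0.54 (adjusted p = 0.153) and 0.72 (adjusted p = 0.132). For Muc1 1 ob/ob array was left out of the fit, as its spot was flagged as an outlier. These 6 duct genes had an unadjusted p under 0.05. The summed duct signal was 16.32 to 16.51 in WT, 16.18 to 16.58 in PPARγ2KO, 15.59 to 16.69 in ob/ob and 15.87 to 16.43 in POKO. The part of duct cells in the Cyp3a13 and Hnf4a signals was not tested. Upwards past the criteria went 5 of 7 T cell genes, 2 of 3 erythroid genes, 2 of 6 endothelial genes, 1 of 9 beta cell genes (Nkx6-1), 1 of 9 hepatocyte genes (Tat) and 1 of 7 adipocyte genes (Fabp4). At an unadjusted p under 0.05, 1 T cell gene and 1 erythroid gene were lower, and all 6 endothelial genes and 2 beta cell genes were higher. None of the alpha, delta, PP, enterocyte, macrophage, fibroblast and mucosal genes passed in ob/ob by limma, of which 2, 0, 2, 1, 2, 0 and 2 had an unadjusted p under 0.05.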

How the data were processed

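The 12 deposited scanner files of Agilent Feature Extraction (version 10.1.1.1 per the submitters' notes) hold spot intensities, which per the file headers were background-subtracted and not normalized between arrays. Control spots (1639 of 45018) and 919 spots that carry outlier flags were left out. The deposited intensities were quantile-normalized here with limma 3.58.1 (R 4.3.3) and then taken to log2, and spots of a probe were averaged. The authors also deposited a table of normalized log2 values, used as an alternative. Probes were named through the RefSeq accession of each, which gave a symbol to 25097 of 41174. The deposited flags give the spots well above background. A limma fit (lmFit, eBayes) with genotype as the only factor over all 12 arrays gave the 6 comparisons and the interaction, with Benjamini-Hochberg adjustment over 41174 probes. The criteria are those of the study, a log2 change of 1 in either direction and an adjusted p of 0.05 (0.2 or 0.3 where the text says so). Arrays are pools, and the replicates of a genotype lie on different slides. Nothing else is known of how replicates differ, so p-values of the fit without a block measure the spread between pools and slides together. The script was tested on simulated data. Values in every array are given for members past the criteria, detected members whose log2 change is 1 or more in size and groups that do not overlap in a comparison with WT or of POKO with ob/ob, and the 6 with the highest mean signal, an order that serves only this choice. The members, the gene lists and the marker lists were chosen with earlier results of these data known. Alternatives were 75th percentile scaling, normexp (offset 50), a filter on dim probes, outlier spots kept, only the groups compared, the slide as a replicate block, array weights, the authors' values, a gene's probes averaged, no criterion on fold, and each array left out. Probe sequences were not used here, so signals shared between close paralogs of the Cyp2a, Cyp2b, Cyp2c and Cyp4a genes cannot be told apart. Sums of marker signals keep outlier spots.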

Additional observations from a re-analysis of the deposited data

How the results depend on the processing

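The number of P450 members past the criteria in ob/ob against WT, 3 (5.08%, beside 5.47% of all probes), was 1 after normexp correction (Cyp3a13, beside 0.933% of probes) and 1 with only the groups compared (Cyp2a4, beside 1.2%). It was 5 of the 31 left by the filter on dim probes (16.1%, beside 11%), 5 with the replicate block (8.47%, beside 5.36%), 6 with the adjusted p alone (10.2%, beside 11.1%) and 9 with array weights (15.3%, beside 11.3%). With single arrays left out it was 0 to 6, the 0 without WT replicate 2 (beside 0.364%), the 6 without PPARγ2KO replicate 3 (beside 5.6%) and 1 without ob/ob replicate 3 (beside 0.821%). The block kept the calls of Cyp3a13, Cyp2a4 and Cyp2u1 and added Cyp2b19 and Cyp2r1. With array weights the number was 1 in POKO against WT (Cyp3a13, beside 3.98% of probes), 2 in POKO against ob/ob (Cyp2r1 and Cyp3a13, beside 4.06%), 1 in POKO against PPARγ2KO (Cyp4f18, beside 1.84%) and 1 in ob/ob against PPARγ2KO (Cyp3a13, beside 2.18%), where it was 0 before. With single arrays left out it was 0 to 1 in POKO against WT (1, Cyp3a13, without WT replicate 3), 0 to 1 in PPARγ2KO against WT, 0 to 1 in POKO against ob/ob (without ob/ob replicate 1), 0 to 3 in POKO against PPARγ2KO and 0 to 2 in ob/ob against PPARγ2KO (both highest without PPARγ2KO replicate 3) and 0 to 1 for the interaction (1, Cyp2u1, without WT replicate 3). The number of detected members was 31 to 32 with an array left out and 41 when 1 array of any genotype sufficed. The cause of these shifts was not tested.

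Scaling to the 75th percentile moved the median of all probes to -0.19 in ob/ob against WT (main -0.08), -0.16 in POKO against WT and 0.12 for the interaction. The log2 fold change of Cyp4f13 in ob/ob turned to -0.028 under that scaling and to -0.0404 with array weights and ranged from -0.0959 to 0.118 with single arrays left out, and that of Cyp2s1 from -0.871 to 0.00584. Of the values of named members under an alternative, 279 kept direction and call, 14 lost the call, 11 gained it and 4 changed sign. Dim members are limited by signal over background, since the lowest log2 signal called in WT was 3.55 to 4.04. Replicate numbers mark the slide, and arrays of the same number did not deviate together (correlations from -0.27 to 0.26, 5 of 18 over 0.1).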
